A study of Mus musculus with 18 samples.

Results

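Of the 41079 genes measured in 18 B16F10 tumors, 55 were keratin genes, taken by name (gene symbols made of Krt, a number and at most 1 letter). The name alone decided which genes belong, but the family was chosen with earlier results of these data known. They are described here in 8 classes, of which the 4 interfollicular keratins (Krt5, Krt14, Krt1 and Krt10) and the 15 hair keratins (Krt31 to Krt40 and Krt81 to Krt86) are set against each other. The tumors were grown from B16F10 cells, a mouse melanoma line, placed under the skin of the flank of female C57BL/6 mice, and each of 6 groups held 3 tumors. All mice received injections into the tumor from day 6 onwards at intervals of 2 days, and tumors were taken 48 hours after the last injection. One group received PBS, the vehicle. Free PS473 is a Pistol ribozyme, an RNA enzyme made to cut the PD-L1 transcript, given without a carrier, and PS473@CPs is the same ribozyme with cationic polymers. NKMOF-101-[Mn] is a manganese framework without ribozyme, M5@NKMOF-101-[Mn] is the framework with a catalytically inactive mutant of the ribozyme, and PS473@NKMOF-101-[Mn] is the framework with the active ribozyme. The 3 tumors of the last group carry another framework number in their titles, and they were assigned by the described treatment. The tumors are of 1 injected cell line in 1 mouse strain, and whole tumor tissue was sequenced.

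Keratins form the intermediate filaments of epithelial cells. A filament needs a type I partner and a type II partner, and the pair in use marks the cell's state: Krt5 with Krt14 in dividing basal cells of the epidermis, Krt1 with Krt10 in the cells above them, Krt6a or Krt6b with Krt16 or Krt17 in wounded or hyperproliferative epidermis and in the outer root sheath of the hair follicle, Krt8 with Krt18 in single-layered epithelia, and the hair keratins in the hardening shaft of a growing hair. Melanoma cells descend from melanocytes, which are not epithelial and are not known for these pairs.

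The labelled cell type was checked first. All 10 melanocyte marker genes were measured in every tumor, with a sum of 5040 to 8031 FPKM (fragments scaled by gene length and by the total of the tumor, so a level per length) and none of the list near 0. Dct, an enzyme of melanin synthesis, lay between 2087 and 3416 FPKM over the 18 tumors, and Pmel, a protein of the pigment granule, between 893 and 1836 FPKM. The deposited values correspond to 17209000 to 28398000 fragments per tumor, and 3 fragments, the upper limit that a count of 0 allows for counting error alone, correspond to 0.0579 to 0.0955 FPKM of Krt14. Replicates are 3 tumors of a group, and no pair of tumors held identical values.

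The keratins split by class, not by type. Interfollicular keratins held 50.2% of the 808366 keratin fragments estimated over all tumors, and the 4 keratins of wounded epidermis and outer root sheath (Krt6a, Krt6b, Krt16 and Krt17) held 46.0%. The other epidermal keratins (6 genes) held 2.60%, the root sheath keratins (10 genes) 0.986% and the 5 keratins outside these classes 0.182%. Krt79, a keratin of the hair canal counted in the root sheath class, held 7456 of that class's 7967 fragments. Simple epithelial keratins (6 genes) held 0.0828%, mucosal and corneal keratins (5 genes) 0.0105%, and hair keratins 0.00838%, which is 67.7 fragments. By gene, 13 of the 55 keratins (5 of type I and 8 of type II) reached a mean of 1 FPKM over the 18 tumors and 19 reached 0.1 FPKM, while 8 were listed at 0 in every tumor. Those 8 were the hair keratins Krt31, Krt33a, Krt33b, Krt34, Krt40 and Krt81 and the root sheath keratins Krt26 and Krt72.

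**Figure D1:**
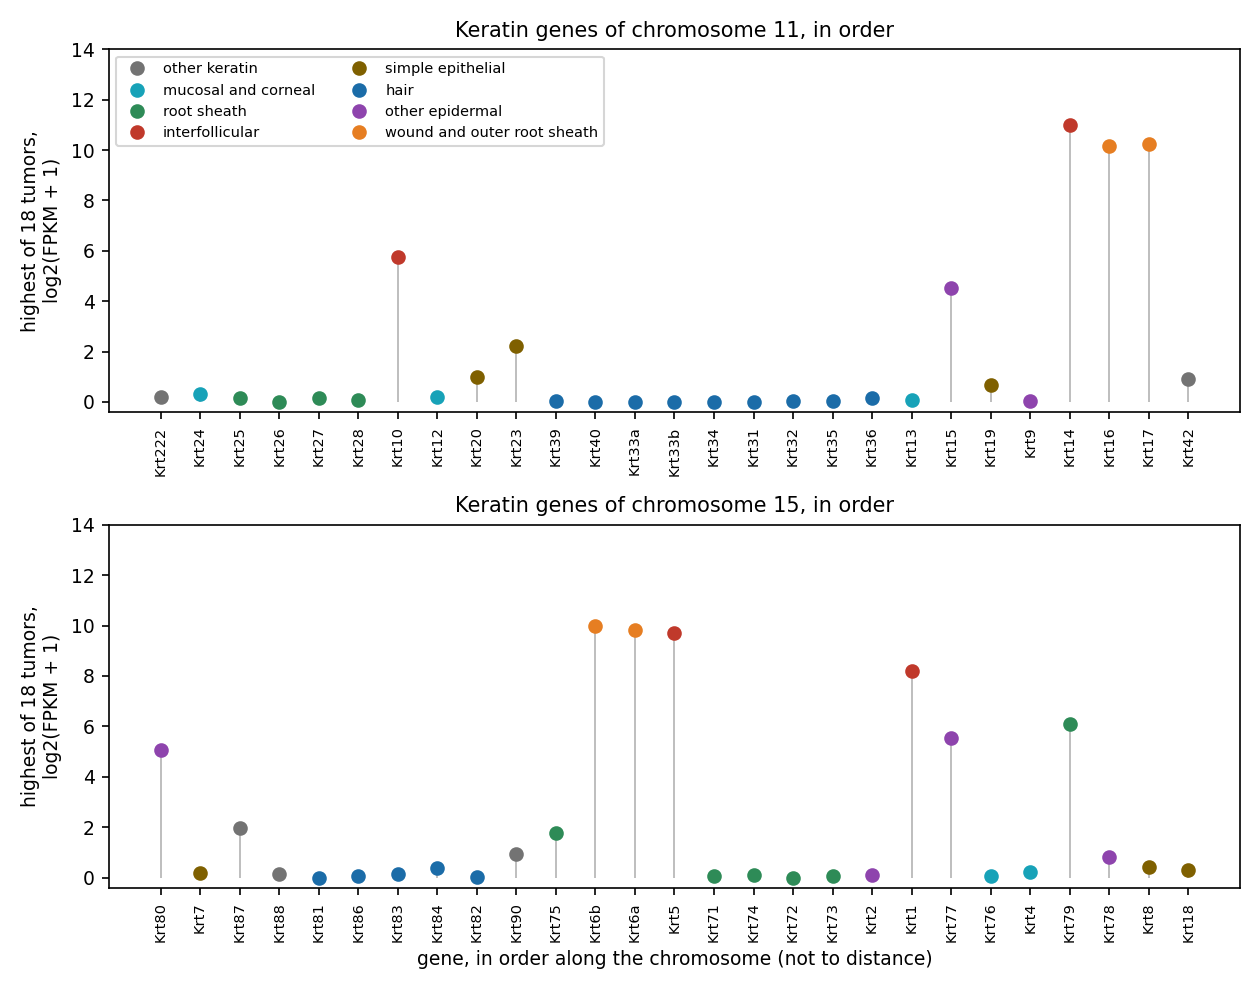
Highest value of each keratin gene over the 18 tumors, as log2(FPKM + 1), with genes in their order along chromosomes 11 (27 genes) and 15 (27 genes) and coloured by class; the horizontal axis is order, not distance. The 9 hair keratins of chromosome 11 and the 5 of chromosome 15 lie near 0 in one stretch each, and the tallest points are Krt14, Krt17, Krt16, Krt6b, Krt6a and Krt5, outside those stretches.

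Gene order was taken from RefSeq, which matched 54 of the 55 symbols and placed 27 on chromosome 11, all of type I, and 27 on chromosome 15. The hair keratins stand side by side in both clusters. On chromosome 11 the run from Krt39 to Krt36 lies between Krt23 and Krt13, and Krt15, Krt14, Krt16 and Krt17 follow after it. On chromosome 15 the run from Krt81 to Krt82 lies between Krt88 and Krt90, and Krt6b, Krt6a and Krt5 follow. Genes of very different level were thus close neighbours in both clusters, and the plot by gene order shows each gene's highest tumor.

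Promoter sequences were available for 36 of the 55 keratins from RefSeq (build GRCm38.p6, the 250 bases before the annotated start). They are shown for Krt5, Krt14 and Krt10, which were abundant in some tumors, and for the undetected Krt31, to set their start regions beside each other. The capitals mark TATAAA, searched on both strands. Krt14 spans chr11:100206031-100206280, Krt10 chr11:99389365-99389614, Krt31 chr11:100050552-100050801 and Krt5 chr15:101712906-101713155, all on the minus strand, and each is written 5′ to 3′ along its own strand.
Krt5: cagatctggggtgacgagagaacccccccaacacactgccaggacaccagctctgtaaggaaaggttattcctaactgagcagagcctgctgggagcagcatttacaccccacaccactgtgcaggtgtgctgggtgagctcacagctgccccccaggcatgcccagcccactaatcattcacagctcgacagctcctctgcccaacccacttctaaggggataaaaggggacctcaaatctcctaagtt
Krt14: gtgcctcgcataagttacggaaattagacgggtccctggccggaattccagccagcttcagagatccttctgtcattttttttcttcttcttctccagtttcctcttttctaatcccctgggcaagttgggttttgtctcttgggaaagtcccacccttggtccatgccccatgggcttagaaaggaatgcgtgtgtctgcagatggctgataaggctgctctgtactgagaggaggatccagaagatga
Krt10: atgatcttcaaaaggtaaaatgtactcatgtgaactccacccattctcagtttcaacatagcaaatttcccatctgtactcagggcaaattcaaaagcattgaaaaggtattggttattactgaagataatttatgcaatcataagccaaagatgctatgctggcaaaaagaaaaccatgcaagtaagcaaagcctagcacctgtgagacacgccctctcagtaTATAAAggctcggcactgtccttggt
Krt31: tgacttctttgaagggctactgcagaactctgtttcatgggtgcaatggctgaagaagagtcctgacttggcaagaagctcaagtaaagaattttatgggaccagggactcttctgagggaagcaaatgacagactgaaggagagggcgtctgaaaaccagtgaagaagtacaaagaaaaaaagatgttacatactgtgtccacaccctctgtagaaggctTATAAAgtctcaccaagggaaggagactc
TATAAA was found in 17 of the 36 keratins, against 12.4% of all 32851 promoters of the same length. It starts 26 bases before the annotated start in Krt10 and 29 bases before it in Krt31, whose levels were far apart. These letters were not in the printed windows of Krt5 and Krt14. Each window precedes 1 annotated start whose use in these tumors was not checked, so the sequence before another start of the gene could differ. Members that carry the motif therefore include both a keratin at a mean of 10.1 FPKM and a keratin listed at 0 in all 18 tumors. TGANTCA, the letters read by AP-1 factors, was found in 1 of the 36 keratins and in 6.75% of all promoters, and GCCNNNGGC, the letters read by AP-2 factors, in 5 of the 36 and in 13.7% of all promoters.

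Krt14, the type I keratin of basal cells, ranged from 0 to 2058 FPKM and was above 0 in 13 of the 18 tumors. In the PBS group it was 0, 2058 and 666 FPKM in replicates 1, 2 and 3. In the Free PS473 group it was 0, 0 and 184 FPKM. In the PS473@CPs group it was 0.0272, 1756 and 36.3 FPKM. Each of these 3 groups thus held a tumor with at most a trace and a tumor with at least 184 FPKM. In the NKMOF-101-[Mn] group Krt14 was 375, 0 and 52.7 FPKM. In the M5@NKMOF-101-[Mn] group it was 0, 0.272 and 134 FPKM. With PS473@NKMOF-101-[Mn] it was 0.162, 75.7 and 4.07 FPKM. All 6 groups overlapped one another, since every group held a tumor at or below 0.162 FPKM and a tumor at or above 75.7 FPKM. By mean, PBS tumors stood at 908 ± 1050 FPKM (SD, n = 3) and PS473@NKMOF-101-[Mn] tumors at 26.6 ± 42.5 FPKM (SD, n = 3), and each SD exceeded its mean.

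**Figure D2:**
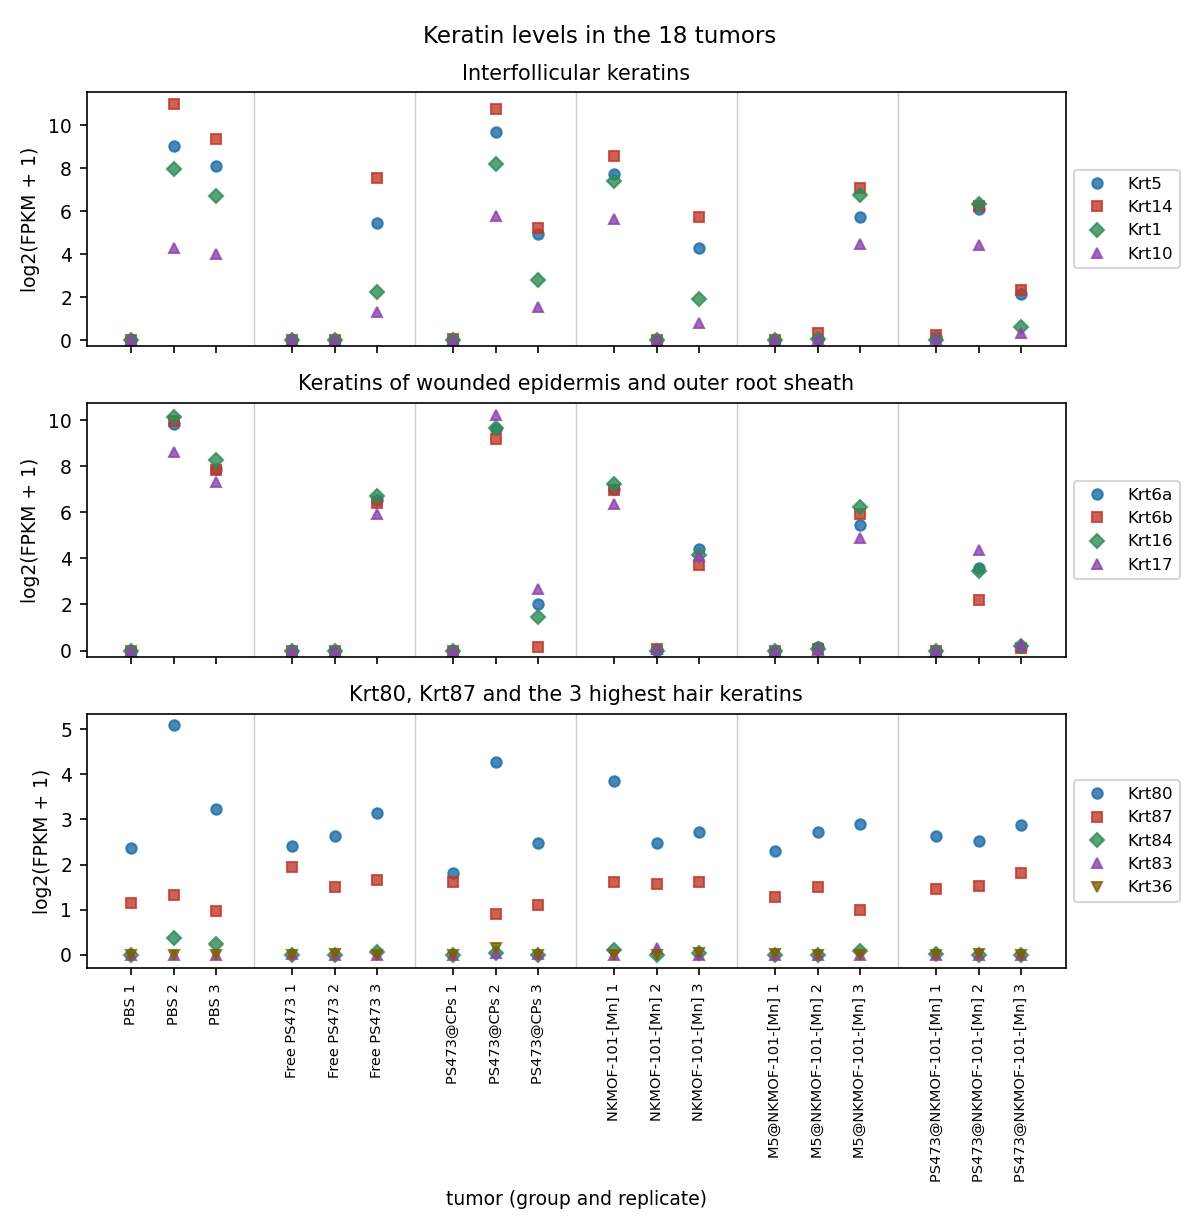
Levels of 13 keratins in each of the 18 tumors, as log2(FPKM + 1), with 1 column per tumor and vertical lines between the 6 groups. In PBS replicate 2 and PS473@CPs replicate 2 both interfollicular and wound keratins are high. Among tumors with at least 1 FPKM of Krt14, both Krt5 and Krt14 stand above the wound keratins in PS473@CPs replicate 3, NKMOF-101-[Mn] replicate 1 and PS473@NKMOF-101-[Mn] replicates 2 and 3. Krt80 and Krt87 are present in all 18 tumors, and the 3 hair keratins with the highest single values stay below 0.5.

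Krt5, the type II partner of Krt14, was at 0, 519 and 276 FPKM in the PBS tumors and at 0.0959, 67.6 and 3.43 FPKM in the PS473@NKMOF-101-[Mn] tumors. It reached its highest level, 837 FPKM, in PS473@CPs replicate 2 and was at least 1 FPKM in the same number of tumors as Krt14, 10 of 18. Krt1, the type II keratin of suprabasal cells, ranged from 0 to 296 FPKM, with 0, 246 and 103 FPKM in the PBS tumors and 0, 79.3 and 0.510 FPKM in the PS473@NKMOF-101-[Mn] tumors. Krt10, the partner of Krt1, ranged from 0 to 53.2 FPKM. For Krt10 the deposited gene length is 11520 bases against 2094 for its longest coding transcript in GENCODE, so its mean of 10.1 FPKM over the 18 tumors would be 55.3 FPKM on the transcript length. The level of Krt10 against other keratins thus rests on the length used, while its ratios of FPKM between tumors do not. Its differences in log2(FPKM + 1) do depend on the length, through the added 1. Over the 53 keratins with a coding transcript the median ratio of the lengths was 1.00, and 6 keratins exceeded 1.5.

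Among the keratins of wounded epidermis and outer root sheath, Krt16 was at 0, 1133 and 308 FPKM in the PBS tumors, at 0, 803 and 1.74 FPKM in the PS473@CPs tumors and at 0, 10.0 and 0.159 FPKM in the PS473@NKMOF-101-[Mn] tumors. Krt6a ranged from 0 to 894 FPKM and Krt6b from 0 to 1000 FPKM, both highest in PBS replicate 2. Krt6b holds 43.6% of the 50-base stretches of the Krt6a transcripts, and Krt16 shares 12.4% of its own with Krt14, so reads can be split between them and their separate levels are uncertain. An antisense gene, Gm49428, covers 471 exon bases of Krt6a with a mean of 34.4 FPKM, and the counting is not stated to use strand, so part of the Krt6a signal cannot be told apart from it. Krt17, named here after its values were seen, was highest at 1198 FPKM in PS473@CPs replicate 2, where it exceeded Krt16.

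The proportions of the keratins differed from tumor to tumor. In PS473@CPs replicate 3, Krt14 was at 36.3 FPKM and Krt5 at 30.2 FPKM, while Krt16 was at 1.74 FPKM and Krt6b at 0.126 FPKM. In PS473@NKMOF-101-[Mn] replicate 3, Krt14 was at 4.07 FPKM and the 4 wound and outer root sheath keratins were between 0.0873 and 0.183 FPKM. Ratios were formed in the 10 tumors with at least 1 FPKM of Krt14, as a description of tumors and not of groups. Krt5 over Krt14 ran from 0.235 in Free PS473 replicate 3 to 0.893 in PS473@NKMOF-101-[Mn] replicate 2, with a median of 0.445. Krt16 over Krt14 ran from 0.0391 in PS473@NKMOF-101-[Mn] replicate 3 to 0.559 in M5@NKMOF-101-[Mn] replicate 3. Krt1 over Krt14 ran from 0.0200 in Free PS473 replicate 3 to 1.05 in PS473@NKMOF-101-[Mn] replicate 2. The share of suprabasal and of wound keratins therefore differed between tumors that all contained Krt14.

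The ratio of Krt6b to Krt1 was formed in 9 tumors. It was highest in Free PS473 replicate 3, at 22.7, with 83.2 FPKM of Krt6b and 3.66 FPKM of Krt1. NKMOF-101-[Mn] replicate 3 followed at 4.44, with 12.2 FPKM of Krt6b and 2.74 FPKM of Krt1. PBS replicate 2 was next at 4.06, with 1000 FPKM of Krt6b and 246 FPKM of Krt1, and held 0.283 FPKM of Krt77. At the other end, PS473@NKMOF-101-[Mn] replicate 2 held 3.57 FPKM of Krt6b and 79.3 FPKM of Krt1, a ratio of 0.0451, with 20.2 FPKM of Krt77. PS473@CPs replicate 3 was lowest with 0.126 FPKM of Krt6b and 5.93 FPKM of Krt1, a ratio of 0.0212. Both ends of this ratio held tumors that received PS473, and in the PS473@CPs group it was 1.94 in replicate 2.

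**Figure D3:**
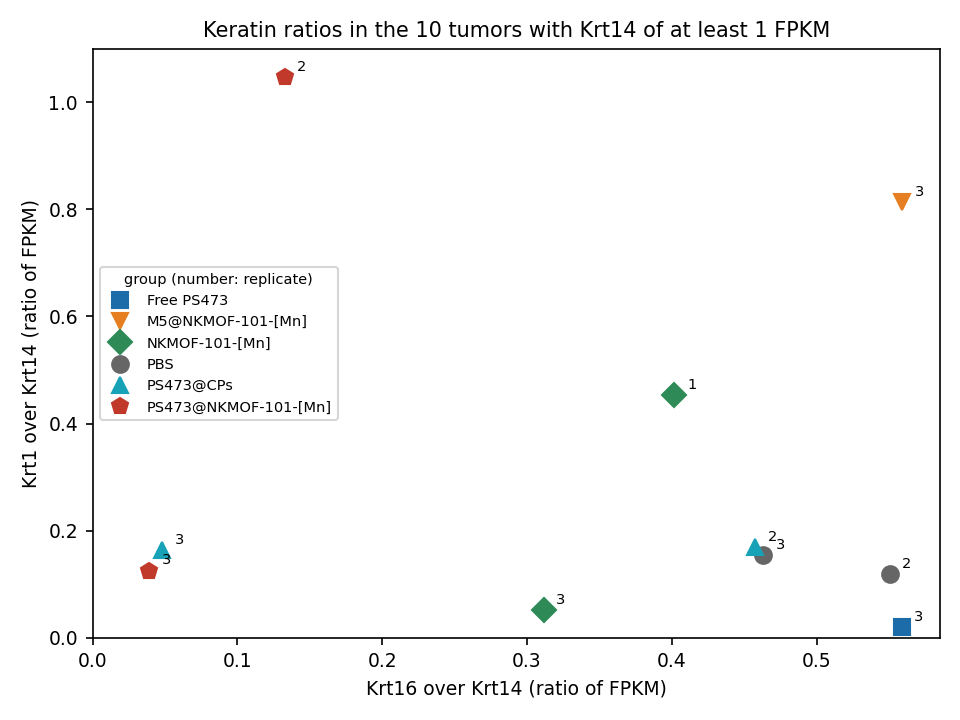
Ratio of Krt1 to Krt14 (vertical) against ratio of Krt16 to Krt14 (horizontal), both as ratios of FPKM, for the 10 tumors with at least 1 FPKM of Krt14; marker and colour give the group and the number beside a point the replicate. Krt16 over Krt14 spans 0.0391 to 0.559 and Krt1 over Krt14 spans 0.0200 to 1.05, and tumors of 1 group lie far apart.

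Krt77, which neighbours Krt1 on chromosome 15, was highest in NKMOF-101-[Mn] replicate 1 at 44.8 FPKM, where Krt1 stood at 170 FPKM, and was at 5.08 FPKM in PS473@CPs replicate 2, where Krt1 was higher at 296 FPKM. Krt15, a keratin of basal cells and of the follicle's stem cell region, was likewise highest in NKMOF-101-[Mn] replicate 1 at 21.9 FPKM. It was at 1.54 FPKM in PBS replicate 2, the tumor with the most Krt14, and at 0 in Free PS473 replicate 3. Krt79, a keratin of the hair canal, reached 67.0 FPKM in PS473@CPs replicate 2 and Krt75, of the companion layer of the follicle, 2.45 FPKM in the same tumor. The other 8 root sheath keratins did not exceed 0.127 FPKM in any tumor.

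The 15 hair keratins, a class set by gene number, were at or near 0 throughout. Their summed level was between 0 and 0.314 FPKM per tumor, and the highest single value was 0.289 FPKM for Krt84 in PBS replicate 2. Krt87 falls outside the class by its number, at 0.882 to 2.86 FPKM over the 18 tumors. It stands near the hair keratins on chromosome 15, and Krt81 holds 11.8% of the 50-base stretches of its transcripts. Of the type II hair keratins, Krt84 had 36.5 fragments over the 18 tumors, Krt83 had 7.00 and Krt86 had 4.50. Of the type I hair keratins, Krt36 had 10.0 fragments, Krt39 had 5.50 and Krt32 had 2.00. In PBS replicate 2, with 247146 keratin fragments, 15.5 were of hair keratins, a share of 0.00627%. For Krt31, 3 fragments correspond to 0.0668 to 0.110 FPKM, so its counts of 0 leave room for a level below that. Lower values were listed for other hair keratins, such as 0.00376 FPKM for Krt85 in Free PS473 replicate 2. The 56 genes of the keratin-associated proteins, which cross-link hair keratins in the shaft, summed to between 0 and 0.297 FPKM per tumor, with Krtap3-2 highest by mean at 0.0288 FPKM. None of the 9 genes of the hair shaft list reached the mean of 1 FPKM, and its leading members, the regulators Dlx3 and Foxn1, did not exceed 1.17 and 0.692 FPKM.

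The simple epithelial keratins were low as well. Krt8 did not exceed 0.327 FPKM, Krt18 0.220 FPKM, Krt7 0.128 FPKM and Krt19 0.576 FPKM in any tumor. Krt23, named here after its values were seen, was the highest of this class at 3.67 FPKM in NKMOF-101-[Mn] replicate 1 and reached 1 FPKM in 4 of the 18 tumors. Of the mucosal and corneal keratins, Krt24 stayed at or below 0.246 FPKM and Krt4, a keratin of the oral and oesophageal lining, at or below 0.153 FPKM.

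Krt80 and Krt87 were at or above 0.882 FPKM in all 18 tumors. The only other keratin above 0 in every tumor was Krt222, at 0.0144 to 0.142 FPKM, named here after its values were seen. Krt80, a keratin of differentiating epithelial cells, was at 4.16, 32.8 and 8.37 FPKM in the PBS tumors. It was at 5.22, 4.76 and 6.29 FPKM in the PS473@NKMOF-101-[Mn] tumors, a range within that of the PBS tumors. Its lowest value was 2.54 FPKM, in PS473@CPs replicate 1, where Krt14 was at 0.0272 FPKM. Krt87 lay between 0.882 and 2.86 FPKM. It was at 1.22, 1.502 and 0.949 FPKM in the PBS tumors and at 1.75, 1.88 and 2.49 FPKM in the PS473@NKMOF-101-[Mn] tumors. It was at 2.04, 1.97 and 2.06 FPKM in the NKMOF-101-[Mn] tumors and at 2.86, 1.81 and 2.15 FPKM in the Free PS473 tumors. In these 3 groups all tumors lay above all PBS tumors, while the PS473@CPs tumors (0.882 to 2.05 FPKM) and the M5@NKMOF-101-[Mn] tumors (0.995 to 1.85 FPKM) overlapped them. Other keratins hold 17.0% of the 50-base stretches of the Krt87 transcripts, and Krt81, the closest, was listed at 0 in every tumor. Krt90, the next keratin outside the classes by mean, did not exceed 0.925 FPKM.

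The groups were compared with limma on log2(FPKM + 1) over those 12357 genes whose mean reached 1 FPKM, of which 13 were keratins. The filter kept all interfollicular and wound keratins and no hair keratin, and most of the 13 passed through a few tumors with high levels. The comparisons of the other 5 groups with PBS share the PBS tumors, and those of PS473@NKMOF-101-[Mn] with other groups share its 3 tumors, so they are not independent. Genes were called at a fold change above 2 together with a Benjamini-Hochberg adjusted p under 0.05. Limma called 0 of the 13 keratins and 0 of the 12357 genes (0%) in each of the 9 comparisons between groups. The same held in the comparison of the 3 framework groups with the other 3. The F-test over all 6 groups has no fold change and was called at the adjusted p alone, and it also gave 0 of the 13 keratins and 0 of the 12357 genes (0%). Of the other lists, 9 of 9 desmosome, 5 of 5 hemidesmosome, 6 of 8 keratinocyte regulator and 7 of 11 cornified envelope genes entered the fit, and 0 of them passed in either direction. The 9 hair shaft genes and the 56 keratin-associated protein genes did not enter it.

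PS473@NKMOF-101-[Mn] against PBS asks what the complete treatment did against the vehicle. Krt14 differed by −3.86 on the log2 scale (SE 3.42, 95% interval −11.2 to 3.45). Most of the 13 keratins entered the fit through a few tumors with high levels, PBS replicates 2 and 3 among them, so their signs are not counted. At an unadjusted p under 0.05, limma found 1 of the 13 keratins, Krt87, against 2.1% of all genes. Krt87 differed by 0.45 (SE 0.18, unadjusted p = 0.0283, limma adjusted p = 0.993), and 4.66% of all genes had groups that did not overlap, as Krt87 had.

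For NKMOF-101-[Mn] against PBS the Krt14 difference was −2.03 on the log2 scale (SE 3.42, 95% interval −9.33 to 5.28). Limma found Krt87 alone at an unadjusted p under 0.05, against 1.46% of all genes, with a difference of 0.45 (SE 0.18, unadjusted p = 0.0279, limma adjusted p = 1.00), and 6.02% of all genes had groups that did not overlap. For Free PS473 against PBS the Krt14 difference was −4.29 (SE 3.42, 95% interval −11.6 to 3.02). Krt87 was again the only keratin at an unadjusted p under 0.05, against 1.81% of all genes, with a difference of 0.55 (SE 0.18, unadjusted p = 0.00934, limma adjusted p = 1.00), and 4.91% of all genes had groups that did not overlap. Krt87 was thus placed above PBS in 3 comparisons that share the same PBS tumors, and in none did it pass the adjustment.

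For M5@NKMOF-101-[Mn] against PBS the Krt14 difference was −4.32 on the log2 scale (95% interval −11.6 to 2.98), and 0 of the 13 keratins reached an unadjusted p under 0.05 in limma, against 1.51% of all genes. For PS473@CPs against PBS it was −1.45 (95% interval −8.75 to 5.85), with 0 of the 13 keratins against 2.09% of all genes. PBS had the highest mean Krt14 of the 6 groups, from PBS replicates 2 and 3.

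**Figure D4:**
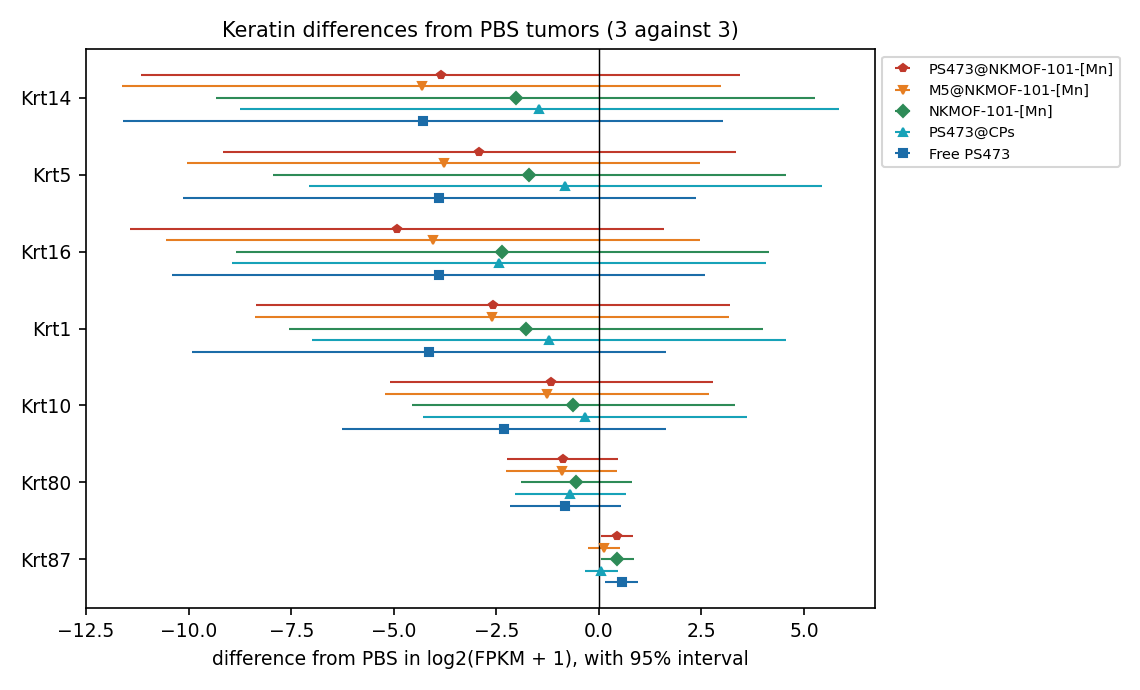
Differences of 7 keratins from the PBS tumors in log2(FPKM + 1), with 95% intervals from limma, for the 5 other groups (3 tumors against 3 in each). The intervals of Krt14, Krt5, Krt16, Krt1, Krt10 and Krt80 all include 0, and those of Krt87, the narrowest, lie above 0 for PS473@NKMOF-101-[Mn], NKMOF-101-[Mn] and Free PS473 before adjustment.

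Against the other treatments, the Krt14 difference of PS473@NKMOF-101-[Mn] was −2.41 on the log2 scale from PS473@CPs (95% interval −9.71 to 4.90), which sets carrier against carrier. It was 0.43 from Free PS473 (95% interval −6.87 to 7.74) and −1.83 from NKMOF-101-[Mn] (95% interval −9.13 to 5.48). From M5@NKMOF-101-[Mn], the inactive control, it was 0.47 (95% interval −6.84 to 7.77). In these 4 comparisons limma found 0 of the 13 keratins at an unadjusted p under 0.05, against 2.29%, 4.98%, 2.3% and 0.591% of all genes. The intervals are wide on both sides of 0, so a difference in Krt14 within them was not detectable with 3 tumors per group. The 3 framework groups differed from the other 3 by −1.49 in Krt14 (SE 1.97, 95% interval −5.71 to 2.73), with 0 of the 13 keratins at an unadjusted p under 0.05 and 4.56% of all genes. In the F-test over the 6 groups, Krt87 was the 1 keratin that limma found at an unadjusted p under 0.05 (unadjusted p = 0.0335, limma adjusted p = 1.00), against 1.99% of all genes.

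The spread within groups set these limits. The pooled SD between tumors of 1 group was 4.61 on the log2 scale for Krt14, the largest of the 12357 genes. Krt16, Krt6b, Krt5 and Krt6a held ranks 2 to 5 with SDs of 4.10, 3.95, 3.94 and 3.94. In all, 11 of the 13 keratins were among the 1% of genes with the largest SD, and the keratin median was 3.64 against 0.183 over all genes. Most of the 13 passed the filter on the mean through a few tumors with high levels, which also makes their SD large. These ranks therefore describe the keratins that passed, and those left out of the fit have no rank. Krt80, at 0.85, and Krt87, at 0.23, were the 2 exceptions. Group membership accounted for 15.7% of the sum of squares of Krt14 over the 18 tumors. It accounted for 10.9% to 20.6% in the keratins other than Krt87, where it was 57.3%. With so few tumors per group, chance alone gives such a share, and none over all genes is given for comparison. The shares therefore do not show an effect of group. In the limma F-test the keratins other than Krt87 had unadjusted p of at least 0.597. Krt87 is the largest share of the 13 and restates its F-test (unadjusted p = 0.0335), which did not pass the adjustment.

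Some of the listed partner genes of keratins were highest in the tumors with the most Krt14, while others were not. The share of all fragments that came from keratins ran from 0.00127% in PS473@CPs replicate 1 to 1.31% in PS473@CPs replicate 2, and PBS replicate 2 was next at 1.27%. In bulk tissue, fewer cells of a type and less RNA per cell cannot be told apart. The 9 desmosome genes, whose products anchor keratin filaments at cell contacts, summed to 1.60 to 665 FPKM in the PBS tumors, 1.69 to 478 in the PS473@CPs tumors and 2.36 to 44.2 in the PS473@NKMOF-101-[Mn] tumors. Pkp1, Dsc1, Dsc3, Dsg1a and Dsg3 of this list were at 0 in some of the tumors, and the other members in none. The sums were 2.89 to 74.9 FPKM in Free PS473, 3.29 to 193 in NKMOF-101-[Mn] and 2.14 to 65.7 in M5@NKMOF-101-[Mn]. Perp, a desmosome protein, was at 0.0525, 275 and 68.5 FPKM in the PBS tumors, in the same order as Krt14. Dsp, which links desmosomes to the filaments, was at 0.147, 120 and 27.1 FPKM there. The 5 hemidesmosome genes, which tie basal cells to the basement membrane, summed to 18.1 to 139 FPKM over the 18 tumors. Of these, Dst and Itga6 led by mean, at 5.74 to 16.0 and 6.22 to 26.3 FPKM. Itga6 was highest in PS473@CPs replicate 2 and PBS replicate 2. Col17a1 and Itgb4, named here after their values were seen, were also highest in these 2 tumors. Col17a1 was at 0.0362, 52.5 and 21.6 FPKM in the PBS tumors and Itgb4 at 0.706, 18.2 and 7.15 FPKM.

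The cornified envelope genes, which form the outer shell of dead epidermal cells, were measured for 11 of the 12 listed, and their sum ran from 0.285 to 725 FPKM over the tumors. Sprr1a was at 0.0632, 422 and 48.8 FPKM in the PBS tumors and at 0, 3.34 and 0 FPKM in the PS473@NKMOF-101-[Mn] tumors. Sprr1b was at 0, 182 and 23.8 FPKM in the PBS tumors. Of the keratinocyte regulators, Tfap2a lay between 6.59 and 11.1 FPKM in all 18 tumors and was highest in NKMOF-101-[Mn] replicate 3, while Klf4 was highest in PBS replicate 2 at 16.2 FPKM, next in PS473@CPs replicate 2 at 12.3 FPKM. Perp, Dsp, Itga6, Col17a1, Itgb4 and Klf4 thus had their 2 highest values in PBS replicate 2 and PS473@CPs replicate 2, the tumors with the most Krt14, as Sprr1a and Sprr1b did, and Tfap2a and Dst did not.

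**Figure D5:**
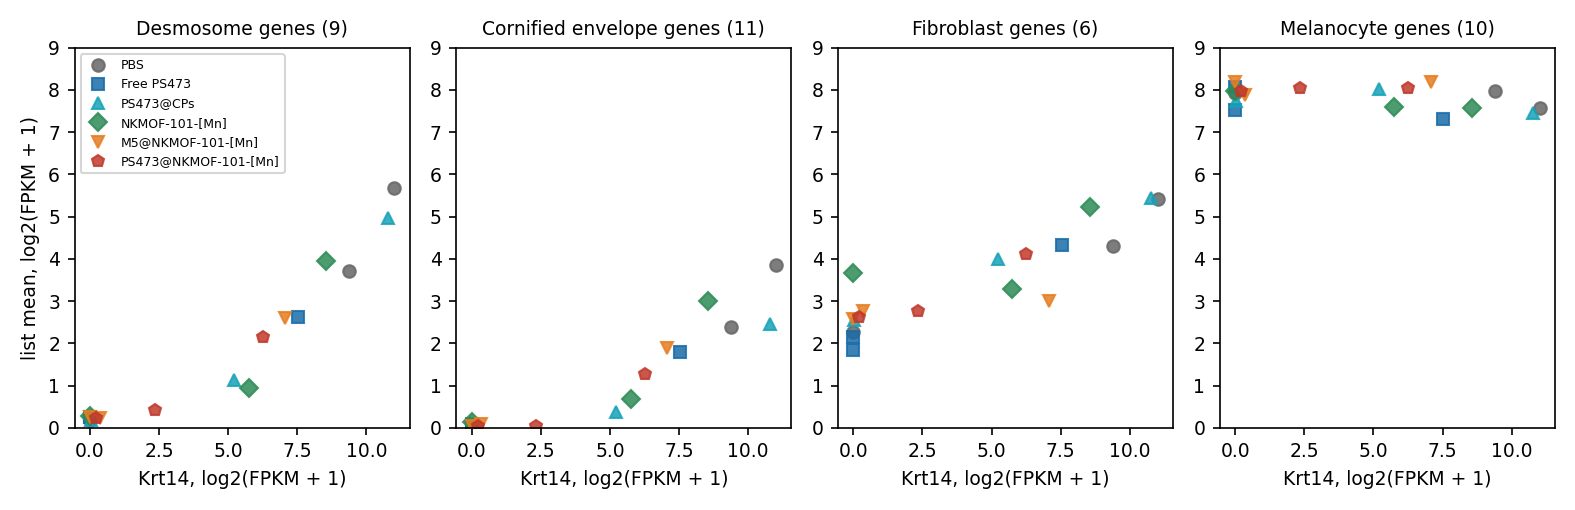
Mean log2(FPKM + 1) of the 9 desmosome, 11 cornified envelope, 6 fibroblast and 10 melanocyte genes (vertical) against Krt14 in log2(FPKM + 1) (horizontal) in the 18 tumors, with marker and colour by group. Desmosome and cornified envelope means are near 0 where Krt14 is near 0 and reach 5.67 and 3.86 in PBS replicate 2, while the melanocyte mean lies between 7.31 and 8.19 in every tumor.

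Other tissue markers were set beside the keratins in the same tumors. Of the 6 fibroblast genes, which dermis also expresses, none was listed at 0 in any tumor, and their sum ran from 28.3 to 642 FPKM. By group the sums were 53.5 to 642 FPKM in PBS, 28.3 to 272 in Free PS473, 62.1 to 602 in PS473@CPs, 142 to 556 in NKMOF-101-[Mn], 64.6 to 75.8 in M5@NKMOF-101-[Mn] and 64.1 to 234 in PS473@NKMOF-101-[Mn]. Col1a1, a collagen chain, was at 25.7, 292 and 112 FPKM in the PBS tumors, and Col1a2 at 15.6, 164 and 59.9. Both were highest in PBS replicate 2, as Krt14 was. In M5@NKMOF-101-[Mn] replicate 3, Krt14 was at 134 FPKM and the fibroblast sum at 75.8 FPKM, the highest of that group, whose lowest was 64.6 FPKM. Col1a1 in that group was at 31.3, 29.7 and 29.4 FPKM and Dcn, named here after its values were seen, at 1.2, 1.89 and 5.79 FPKM. In NKMOF-101-[Mn] replicate 2, Krt14 was listed at 0 and Col1a1 was at 96.2 FPKM.

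The 10 skeletal muscle genes summed to 2.72 to 62.7 FPKM and followed another order. Acta1 was highest in PBS replicate 3 at 30.9 FPKM and at 0.196 FPKM in PBS replicate 2, and Mylpf lay between 1.05 and 4.34 FPKM. The 8 adipocyte genes summed to 5.43 to 80.5 FPKM, with Fabp4 and Cfd highest in Free PS473 replicate 3, at 52.2 and 23.0 FPKM. The 6 leukocyte genes summed to 19.9 to 115 FPKM, with Laptm5 at 5.65 to 35.9 FPKM and Lcp1 at 6.61 to 29.9 FPKM. The part of other tissues taken with the tumor in the keratin levels was not tested.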

How the data were processed

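Poly(A) RNA of 18 tumors was sequenced, and the authors deposited a table of FPKM for 41079 genes, together with the length of each gene. Per the labels the build is GRCm39, and the aligner and counter are not given in the sources used here. Fragments per tumor were estimated from the steps between low FPKM values. At a tolerance of 0.01 fragments, 48.6% to 52.7% of low values were whole, so a count model was not used. All columns were matched to tumors.

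Values were transformed to log2(FPKM + 1). Those whose mean reached 1 FPKM (12357 genes) entered a fit with limma 3.58.1 in R 4.3.3 (1 mean per group, trended moderation), with Benjamini-Hochberg adjustment over all genes. The fit was tested on simulated data. Python 3.11.15, numpy 2.4.6, pandas 2.3.3 and matplotlib 3.10.9 were used for levels, ratios and figures. Gene overlaps, transcript lengths and shared 50-base stretches came from GENCODE M21.

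The members and lists were chosen with earlier results of these data known. Genes were named by a fixed rule: the interfollicular keratins, Krt7, Krt8, Krt18 and Krt19, the 3 leading hair keratins of each type, the 2 leading genes of each other list by mean FPKM, and the 5 keratins with the smallest F-test p. Same-numbered tumors were not treated as pairs. The labels name no batch, and do not say outright that each tumor came from its own mouse, so p values measure only the spread between these tumors. The alternatives were another pseudocount, other filters, quantile normalization, no trend, a replicate block, each tumor left out, the 2 groups fitted alone and unadjusted p values.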

Additional observations from a re-analysis of the deposited data

How the results depend on the processing

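With each of the 90 leave-outs of 1 tumor the number of keratins called remained 0, and so it did in 86 of 87 other settings. The exception was the F-test at an unadjusted p, which gave 1, Krt87. That setting kept the fold change above 2 in the comparisons of groups, while the F-test has none. Without the fold change, limma placed Krt87 at an unadjusted p under 0.05 for PS473@NKMOF-101-[Mn], NKMOF-101-[Mn] and Free PS473 against PBS as well. The filter decides how many of the 55 keratins enter: 13 at a mean of 1 FPKM, 19 at 0.1 FPKM and 47 with no filter. Replicate numbers did not pair the tumors. For each tumor the deviations of all tested genes from their group means were taken, and these deviations were correlated between same-numbered tumors. The 45 correlations of deviations ran from −0.73 to 0.72, and in 0 of 15 pairs of groups were all above 0.1. A fit with the replicate number as a block called 0 keratins.

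Leaving out 1 tumor turned the sign of differences that were not called. For Krt14 the range was −5.43 to 0.35 for NKMOF-101-[Mn] minus PBS, −4.85 to 1.20 for PS473@CPs minus PBS, and, for PS473@NKMOF-101-[Mn], −5.06 to 0.31 minus PS473@CPs, −1.23 to 2.94 minus Free PS473, −4.21 to 0.066 minus NKMOF-101-[Mn] and −1.19 to 2.77 minus M5@NKMOF-101-[Mn]. For Krt87 it was −0.0023 to 0.26 for M5@NKMOF-101-[Mn] minus PBS and −0.14 to 0.21 for PS473@CPs minus PBS. The tumors whose omission turned a Krt14 sign were PBS replicate 2, NKMOF-101-[Mn] replicates 1 and 2, PS473@CPs replicates 1 and 2, Free PS473 replicates 1 and 2, M5@NKMOF-101-[Mn] replicates 1 and 2 and PS473@NKMOF-101-[Mn] replicate 2. For Krt87 they were M5@NKMOF-101-[Mn] replicate 2, PBS replicate 3 and PS473@CPs replicate 1. The other Krt14 differences, and the other Krt87 differences from PBS, kept their sign. Krt87 was not recomputed for the remaining comparisons.

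The difference between the highest and the lowest tumor in the mean log2 level of the hair keratins was 0.03 with a pseudocount of 1 and 0.15 with 0.1, which enlarges differences between low values. That of the interfollicular keratins was 8.62 and 11.9. On the length of its longest coding transcript, an alternative chosen after seeing the data, Krt10 moved from a mean of 10.1 to 55.3 FPKM and the median of Krt1 over Krt10 from 4.50 to 0.816. Depth limits the hair keratins, of whose 270 values 30 were above 0.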
